A study of Mus musculus with 6 samples.

Results

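The genes of the heat shock proteins, their DnaJ partners and the CCT chaperonin were followed in cultured fibroblasts of mouse embryos, from wild type and Wrn mutant animals, with and without exposure to hydrogen peroxide (H2O2). Members were taken by name alone: every non-control probe whose gene symbol begins with Hspa, Hspb, Hspc, Hspd, Hspe, Hsph or Dnaj, or with Cct and a digit, leaving out Hspa5, Hyou1, Dnajb9 and Dnajc3, which serve the endoplasmic reticulum, and any Hspbap gene. This gave 57 of the 29742 gene names on the array, read by 95 of 41174 probes and 113 of 41534 spots. The members were 9 Hsp70 genes, the Hsp110 gene Hspa4, 2 Hsp90 genes, 7 small heat shock proteins, 2 mitochondrial chaperonin genes, 8 CCT subunits, 14 DnaJ genes of classes A and B and 13 of class C. The remaining member, Hspa5bp1, carries the prefix only because it was named as a binding partner and is Tmem132a in the current annotation. The array uses old symbols for several others: Hspca and Hspcb are Hsp90aa1 and Hsp90ab1, Hspa9a is Hspa9, Dnajb10 is Dnajb2 and Dnajd1 is Dnajc15.

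Molecular chaperones bind unfolded or partly folded proteins and keep them from aggregating. Hsp70 proteins do so in cycles driven by ATP, which DnaJ proteins start by delivering the substrate and Hsp110 proteins reset by exchanging the nucleotide. Small heat shock proteins hold unfolded proteins without using ATP, Hsp90 matures kinases and receptors, the CCT ring folds actin and tubulin, and Hspd1 with its lid Hspe1 folds proteins in mitochondria. Several of these genes are induced by heat or oxidants through heat shock factors, which bind repeats of the unit GAA in alternating orientation.

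Whole Mouse Genome 60-mer arrays with dyes Cy3 and Cy5 had been hybridized, 2 for each of 3 comparisons. On 2 arrays wild type cells treated with 0.5 mM H2O2 for 1 h and left to recover for 24 h in fresh medium (Cy5) were set against untreated wild type cells (Cy3), and on 2 arrays the same was done with mutant cells. The last 2 arrays held untreated cells of both genotypes. The cells came from minced embryos of day 15 by the labels, on a genetic background mixed from 2 strains, and were grown in DMEM with serum, fetal bovine by the labels and calf by the study's methods. The mutant animals, called WS in the labels, carry an engineered deletion within the helicase domain of Wrn, the counterpart of the human Werner syndrome gene, so that a shortened protein rather than none can be made. How many embryos went into a culture is not given in the sources used here. The labels call the 2 arrays of a comparison biological replicates, and dyes were not exchanged between them, so a dye preference of a probe enters every ratio of Cy5 over Cy3 and the number of arrays limits the precision.

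Fibroblast markers with a value numbered 10 of 11 listed. Well above background in untreated cells of both genotypes were 9, the exception being Vim. Since 75.8 to 90.0% of all spots were above background in Cy3, such counts do not identify the cell type. Of the 2 epithelial markers, Cdh1 was not above background in Cy3 on any treatment array, while Tacstd1 was on all 4. Of 7 macrophage markers, 7 were above background on both untreated wild type arrays and 6 on both mutant ones. For 5 endothelial markers these counts were 3 and 1. The summed intensity of the fibroblast markers was 10665 and 16362 in untreated wild type cells, 21031 and 25828 in untreated mutant cells, 8245 and 8306 in treated wild type cells and 17048 and 24636 in treated mutant cells, and its part in the differences between genotypes was not tested. The summed intensity of 7 macrophage markers lay between 379 and 536 in every channel of the treatment arrays, that of 5 endothelial markers between 102 and 234, and that of 2 epithelial markers between 66.3 and 112. Members were brighter than most of the array: 94.7 to 99.1% of their spots were well above background in Cy3, against 75.8 to 90.0% of all spots, and no spot of a member was saturated. Spots that the image software marks as outliers were left out, and this mark fell on members more often than on other spots, on 10.6, 43.4, 1.77, 23.0, 7.08 and 4.42% of their spots over the 6 arrays (wild type 1 and 2, mutant 1 and 2, genotype 3 and 4) against 2.82, 22.6, 0.40, 8.81, 2.15 and 3.25% of all spots. Each gene was read from its brightest probe with a value on at least 5 of the 6 arrays where there was one. A value on all 6 arrays existed for 22 of 56 genes, and Cct8 had none. Both arrays of the wild type comparison gave a value for 31 genes, those of the mutant comparison for 43 and the genotype arrays for 49.

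**Figure D1:**
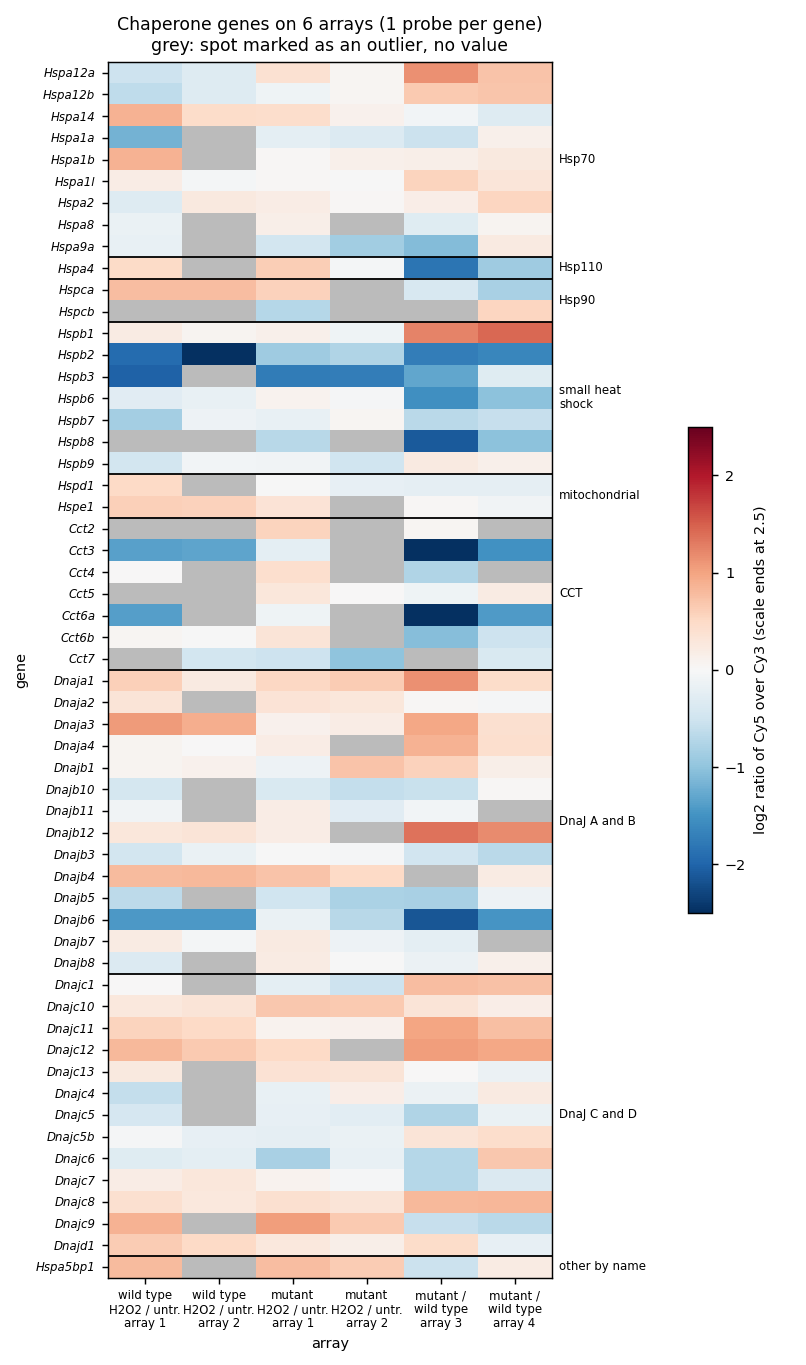
Log2 ratio of Cy5 over Cy3 for the 56 chaperone genes with a value (rows, grouped by family) on each of the 6 arrays (columns), red for higher and blue for lower, with grey where the spot was marked as an outlier. The strongest blue cells are Hspb2, Cct3, Cct6a and Dnajb6, and grey cells are most frequent on wild type array 2.

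The sequence just upstream of the gene start was available from RefSeq (GRCm38.p6) for 46 of the 57 members. The paired units GAANNTTC or TTCNNGAA, each its own reverse complement, occurred in the 250 bases before a start of 14 of the 46 members, or 30.4%, and in 14.5% of all 27025 genes with such a sequence. A longer form, in which either pair is followed after 2 free bases by a further unit in alternation, searched on both strands and overlapping the pairs by construction, occurred in 3 members, Hspd1, Hspe1 and Dnajb6 (6.52%), and in 0.514% of all genes. The sequences below are shown because their genes carry the main differences of the report (Hspb1, Hspb8, Dnajb6 and Cct3) or are classical heat shock genes that passed no threshold (Hspe1 and Hspa1a). Matches are in capitals, each run is the 250 bases before the start, 5′ to 3′ on the strand of the gene, and a match is a description of letters, not of a bound site.
Hspb1 (chr5:135887669-135887918, plus strand): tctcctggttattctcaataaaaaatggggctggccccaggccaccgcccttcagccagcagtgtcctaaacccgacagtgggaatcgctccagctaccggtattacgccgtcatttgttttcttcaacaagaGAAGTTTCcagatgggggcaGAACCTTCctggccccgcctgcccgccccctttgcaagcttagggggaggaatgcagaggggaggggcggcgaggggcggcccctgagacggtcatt
Hspb8 (chr5:116422865-116423114, minus strand): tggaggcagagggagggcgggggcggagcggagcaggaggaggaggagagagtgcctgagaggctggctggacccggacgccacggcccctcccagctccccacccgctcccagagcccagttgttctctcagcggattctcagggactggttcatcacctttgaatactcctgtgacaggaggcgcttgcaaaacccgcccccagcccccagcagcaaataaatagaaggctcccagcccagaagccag
Dnajb6 (chr5:29735648-29735897, plus strand): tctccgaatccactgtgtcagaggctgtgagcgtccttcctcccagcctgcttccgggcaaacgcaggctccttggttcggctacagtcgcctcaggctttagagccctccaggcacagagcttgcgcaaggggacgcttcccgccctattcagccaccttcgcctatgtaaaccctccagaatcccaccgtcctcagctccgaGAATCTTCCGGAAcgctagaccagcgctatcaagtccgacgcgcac
Cct3 (chr3:88296885-88297134, plus strand): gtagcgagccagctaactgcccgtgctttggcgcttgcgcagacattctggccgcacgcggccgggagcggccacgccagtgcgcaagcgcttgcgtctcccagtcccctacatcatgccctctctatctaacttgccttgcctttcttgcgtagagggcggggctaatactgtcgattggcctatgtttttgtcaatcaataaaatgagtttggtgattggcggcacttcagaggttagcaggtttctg
Hspe1 (chr1:55087898-55088147, plus strand): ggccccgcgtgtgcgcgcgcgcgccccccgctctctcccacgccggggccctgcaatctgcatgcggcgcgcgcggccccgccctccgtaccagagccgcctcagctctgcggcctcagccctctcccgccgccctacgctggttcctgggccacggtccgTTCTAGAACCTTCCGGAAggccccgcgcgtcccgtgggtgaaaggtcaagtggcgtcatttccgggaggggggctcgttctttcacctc
Hspa1a (chr17:34972157-34972406, minus strand): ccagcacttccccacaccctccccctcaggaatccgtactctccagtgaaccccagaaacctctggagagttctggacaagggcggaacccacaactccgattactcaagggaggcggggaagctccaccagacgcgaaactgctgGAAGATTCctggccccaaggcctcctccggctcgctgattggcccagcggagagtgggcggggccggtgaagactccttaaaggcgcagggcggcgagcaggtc
Hspb1 held 2 paired units and Dnajb6 and Hspe1 a run of at least 3 units, while Hspb8 and Cct3 held none in this window. The Hspe1 run lies between the starts of Hspe1 and Hspd1, which neighbour each other and share it. Hspa1b, the neighbour of Hspa1a, has the same base at 247 of these 250 positions, and the coding parts of both genes are close copies as well, so that their probes may read both. On the genotype arrays 4 of 14 members with a paired unit were called (Dnaja1, Dnajb6, Hspb1 and Hspb6) and 12 of 31 without one, where 19.4% of all genes were called.

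Exposure of wild type cells to H2O2 changed a single chaperone gene past the threshold: Hspb2, a small heat shock protein best known from muscle, fell. A gene was called at an adjusted p under 0.05 in limma, corrected over all probes, and 1 of 52 members (1.92%) passed against 0.263% of all genes (77 of 29297). At an unadjusted p under 0.05 there were 19 of 52 (36.5%) against 20.2% of all genes. The log2 ratio of Hspb2 was -1.92 on array 1 and -2.97 on array 2, a mean of -2.45 ± 0.25 (SE, n = 2) with an adjusted p of 0.040 from limma. Both arrays were far below 0, although the treated channel was well above background on 1 of the 2. A second probe annotated to Hspb2 did not follow it, with log2 ratios of 0.56 and 0.38.

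The fit takes 1 estimate of a probe's spread from all 6 arrays, and the 2 genotype arrays correlated less with each other (r = 0.542 over all probes) than the 2 wild type arrays (r = 0.783) or the 2 mutant arrays (r = 0.624). With either genotype array left out, 19 of 52 members were called in wild type cells (36.5%) against 23.0% of all genes, 11 of them higher and 8 lower. With any 1 of the 4 treatment arrays left out, no member was called in limma, and no gene of the whole array either (0%). The 19 genes included Hspb2, and among the others were Cct3, Dnaja3, Dnajb4, Dnajb6, Hspca and Hspe1, whose values follow.

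The highest ratios in wild type cells among genes above 0 on both arrays belonged to DnaJ and Hsp90 genes, none of which passed the threshold. Dnaja3, the mitochondrial partner of Hspa9, had log2 ratios of 1.06 and 0.91 with an adjusted p of 0.060 in limma. Dnajb4 read 0.80 on both arrays (adjusted p = 0.076 in limma). Hspca, the stress-inducible cytosolic Hsp90, read 0.76 and 0.78 (adjusted p = 0.092 in limma). In each of these genes the arrays differed by far less than the distance from 0. The genes were picked for high ratios of the same sign on both arrays, so this is no separate support. For 2 of them another probe went the other way, at -0.25 and -0.07 for Dnaja3 and at -0.26 and -0.22 for Dnajb4.

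Hspe1, the lid of the mitochondrial chaperonin, read 0.60 and 0.58, and its barrel Hspd1 read 0.49 on array 1 and was marked as an outlier on array 2, where the marked spot read 0.78. By these probes the pair whose starts share the run of heat shock units stood above 0 on each wild type array, with adjusted p of 0.121 for Hspe1 in limma. A second probe on the Hspd1 transcript, with marked spots kept, differed from the first by -1.31 and -1.24, and so lay below 0 on both arrays. Hspa8, the constitutive Hsp70, read -0.16, and with the marked spot 0.09 on array 2, so that its arrays lay on both sides of 0. A second probe on its transcript, with marked spots kept, differed from the first by -1.24 and -0.97. The inducible Hspa1b read 0.87 on array 1 and, marked, 0.07 on array 2. Its near copy Hspa1a read -1.17 and, marked, -0.21. These classical heat shock genes were thus not called at 24 h, and the 3 other Hspa1a probes, with values on both arrays, stayed between -0.41 and 0.12.

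Lower ratios on both wild type arrays were seen for Dnajb6, Cct3 and Hspb7. Dnajb6, which keeps aggregation-prone proteins soluble, read -1.43 and -1.44 (adjusted p = 0.052 in limma). Cct3, a subunit of the CCT ring, read -1.36 and -1.33 (adjusted p = 0.075 in limma). Hspb7, a cardiac and muscle small heat shock protein, read -0.85 and -0.13. By the probes read here, Dnajb6 and Cct3 repeated closely between arrays, and Hspb7 did not. These genes were picked for low ratios of the same sign on both arrays, so a shared sign is no separate support. A brighter Dnajb6 probe on the same transcript was less reduced, at -0.72 on array 1 and, marked, -0.48 on array 2. Another Dnajb6 probe, on a different accession, went the other way, at 0.51 and, marked, 0.56. Hspb8, left out of the fit because both of its spots were marked, read -1.66 and -1.56, and was called when marked spots were kept (adjusted p = 0.039 in limma). In counts that need no test, 4 of 31 members with both values were at least 1.5-fold higher on both arrays (Dnaja3, Dnajb4, Dnajc12 and Hspca; 12.9% against 5.90% of all genes) and 3 were at least 1.5-fold lower (Cct3, Dnajb6 and Hspb2; 9.68% against 3.54%). With marked spots kept, 6 of 56 were higher by this measure (10.7% against 5.19%) and 5 lower (8.93% against 4.72%), and 3 of 57 were called in limma (Dnaja3, Hspb2 and Hspb8; 5.26% against 2.46%).

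**Figure D2:**
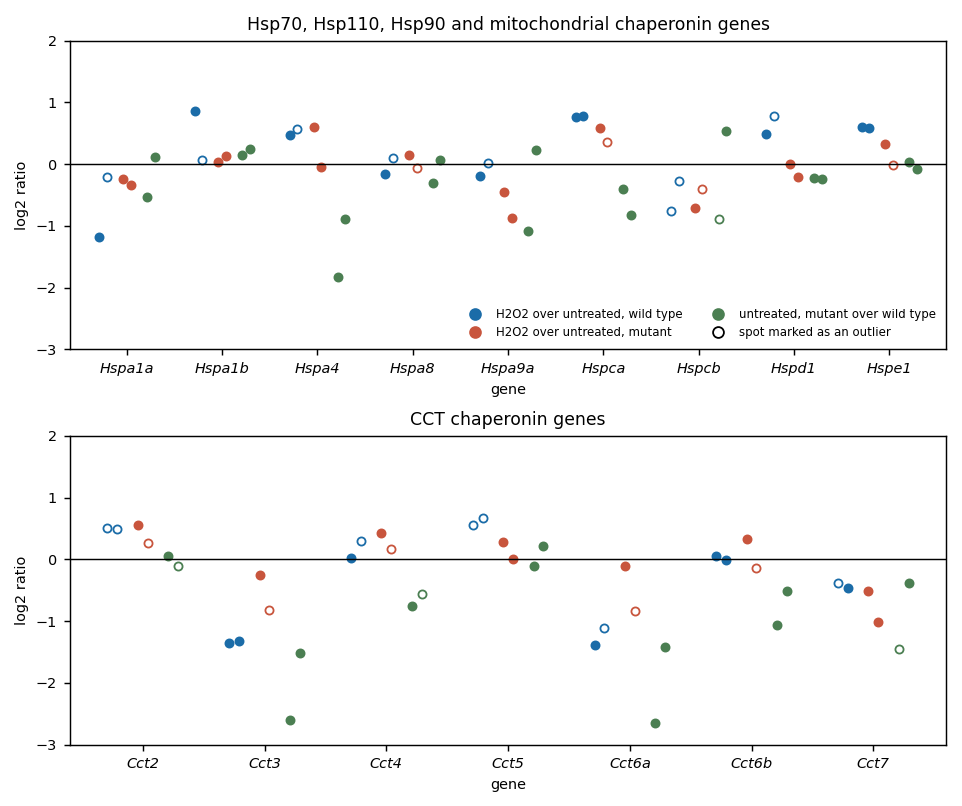
Log2 ratios of the Hsp70, Hsp110, Hsp90 and mitochondrial chaperonin genes (upper panel) and of 7 CCT subunits (lower panel), 1 point per array, coloured by comparison, with open points for spots marked as outliers. By the probes shown, Cct3 and Cct6a stand apart from the other subunits in wild type cells and between genotypes. Hspa4, by the probe shown, is below -0.8 on the genotype arrays alone.

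The CCT ring contains 8 kinds of subunit in equal numbers, and the log2 ratios of its genes after H2O2 in wild type cells ranged from -1.38 to 0.67. Cct6a read -1.38 and, marked, -1.11, near the values of Cct3. Cct6b, the testis form of that subunit, read 0.05 and -0.0021. Cct4 read 0.01 and, marked, 0.30. Cct2 and Cct5, with outlier marks on both arrays, read 0.50 and 0.49 and 0.55 and 0.67, and Cct7 read, marked, -0.38 on array 1 and -0.46 on array 2. By the probes read here and with marked spots counted, 2 of these 7 genes were below -1 on both arrays. The others lay within 0.67 of 0, and none was called. A second probe on the Cct2 transcript, with marked spots kept, differed from the first by -1.17 and -1.45, and so lay below 0 on both arrays. The part of the choice of probe in this split was not tested.

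In mutant cells no chaperone gene passed the threshold after H2O2 (0 of 56 members in limma, and 0% of all 29664 genes), while 10 of 56 had an unadjusted p under 0.05 against 12.6% of all genes. With either genotype array left out the count was 10 of 56 (17.9%), 5 higher and 5 lower, against 10.3% of all genes. The most reduced gene was Hspb3, a small heat shock protein of muscle that partners Hspb2. It read -1.74 and -1.73 (adjusted p = 0.208 in limma), and the treated channel was well above background on 1 array. Hspb2 read -0.89 and -0.76, with the treated channel above background on 1 array as well. The 2 genes that encode this pair were thus below 0 on both mutant arrays by more than the arrays differed, and Hspb3 also read -2.03 on wild type array 1 and, marked, -0.50 on array 2.

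The highest ratios in mutant cells were those of Dnajc9, which accompanies histones, at 1.04 and 0.65, of Hspa5bp1 at 0.77 and 0.64, and of Dnajc10, a disulfide reductase, at 0.67 and 0.65. These 3 were the members at least 1.5-fold higher on both arrays, 3 of 43 with both values (6.98% against 1.43% of all genes). Hspb2 and Hspb3 were the 2 at least 1.5-fold lower (4.65% against 3.18%). With marked spots kept the same 3 were higher, of 56 (5.36% against 1.49%), and Hspb8 joined those that were lower (5.36% against 3.69%). Among members well above background in both dyes and of the same sign on both arrays, the lowest were Cct7 at -0.52 and -1.01, Hspa9a at -0.46 and -0.87 and Dnajb5 at -0.49 and -0.78, and all 3 turned above 0 when the arrays were centred on their median without loess. Hspcb read -0.70 on array 1 and, marked, -0.40 on array 2. Cct3 read -0.25 and, marked, -0.81 in mutant cells, and Cct6a read -0.10 and, marked, -0.83. The core chaperones Hspa8 (0.15), Hspca (0.58) and Hspe1 (0.33) had a value on mutant array 1 alone, and Hspa1a read -0.24 and -0.33. For 2 other Hspa1a probes the values were 0.65 and 0.51 for one and 0.79 and 0.72 for the other, so the probes of this gene disagreed in direction.

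The response of the mutant was set against that of the wild type directly, a contrast in which a dye preference shared by both cancels. No member passed (0 of 52 in limma, and 0% of 29276 genes), and 6 had an unadjusted p under 0.05 against 5.96% of all genes. Hspb2 was the farthest, with a response 1.62 ± 0.35 higher in the mutant on the log2 scale (limma SE, unadjusted p = 0.0025 and adjusted p = 0.591 in limma). Its level in untreated mutant cells (6.22 and 6.15 in Cy3, log2) was below that in wild type cells (6.82 and 9.20) and near background, so the distance over which a fall could be measured was not the same in both genotypes. The contrast was called with either genotype array left out (adjusted p = 0.036 in limma), 1 of 52 members (1.92% against 1.30% of all genes). Dnajb6 differed by 1.01 ± 0.31 and Dnaja3 by -0.84 ± 0.26, with adjusted p of 0.748 and 0.765 in limma. That a gene was past the threshold in wild type and not in mutant cells does not show that the responses differ.

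Between untreated cells the members differed more widely. On the genotype arrays the labels place wild type RNA in Cy5, but the ratios are read here as mutant over wild type, which is the direction of the study's list and opposes the labels. The basis was the Cy3 channel of the 4 treatment arrays, which holds untreated cells of both genotypes in 1 dye: over 7887 probes called on the genotype arrays the log2 differences from both sources had r = 0.850, and 89.6% had the same sign. This rests on the labelled genotypes of those 4 arrays being right, and in the labels' own direction every sign below would turn. In this direction 10 of 56 members were higher in mutant cells (17.9% against 10.7% of all genes) and 9 were lower (16.1% against 8.67%), 19 in all (33.9% against 19.4%) at an adjusted p under 0.05 in limma. With no test, 8 of 49 members with both values were at least 1.5-fold higher on both arrays (16.3% against 9.08%) and 7 at least 1.5-fold lower (14.3% against 7.50%). With marked spots kept these were 8 and 7 of 56 (14.3% against 9.34% and 12.5% against 7.58%), and 23 of 57 were called in limma (40.4% against 22.0%), 10 higher (17.5% against 12.2%) and 13 lower (22.8% against 9.77%). The count was 11 with either mutant treatment array left out (19.6% against 9.07%), 13 without either wild type one (23.2% against 12.8%), 19 of 52 without genotype array 3 (36.5% against 42.7% of all genes) and 26 of 53 without genotype array 4 (49.1% against 28.0%).

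Small heat shock proteins moved in opposite directions. Hspb1, the stress-induced Hsp27 homologue that guards actin filaments, was higher in mutant cells, with log2 ratios of 1.25 and 1.44. Their mean was 1.34 ± 0.16 (limma SE, n = 2, adjusted p = 0.0035 in limma). Hspb2 was lower at -1.72 and -1.62 (mean -1.67 ± 0.25, adjusted p = 0.0069 in limma). Hspb6, another small heat shock protein of muscle, was lower at -1.53 and -1.02 (mean -1.27 ± 0.18, adjusted p = 0.0057 in limma). The arrays of each gene lay on the same side of 0 and far from it. Hspb8, which works with Bag3 in clearing aggregates by autophagy, was also lower, at -2.09 and -1.03 (mean -1.56 ± 0.30, adjusted p = 0.026 in limma), with arrays that differed by more than 1 on the log2 scale. Hspb3 (-1.30 and -0.30), Hspb7 (-0.68 and -0.57) and Hspb9 (0.23 and 0.12) were not called. A second probe annotated to Hspb1, in mutant cells not above background on either array, read 0.23 and -1.67, and a second one for Hspb2 read -0.11 and -0.66.

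**Figure D3:**
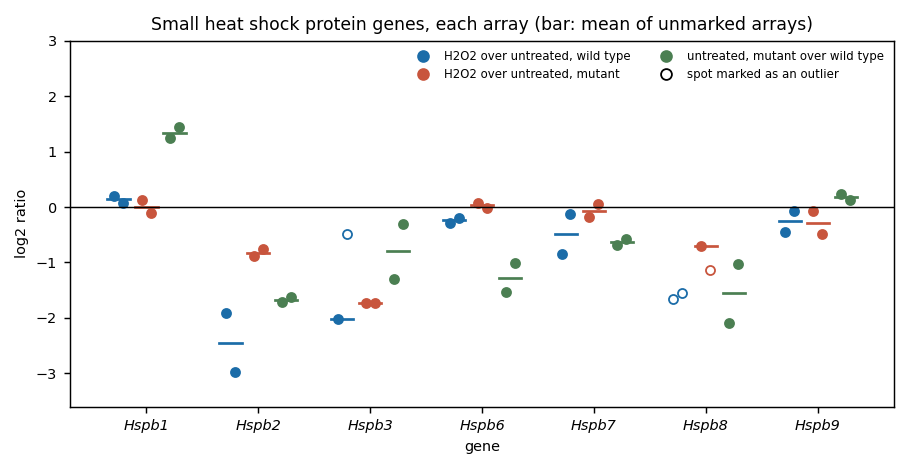
Log2 ratios of the 7 small heat shock protein genes, 1 point per array, coloured by comparison, with the mean of the unmarked arrays as a bar and open points for spots marked as outliers. Hspb1 lies near 0 after H2O2 and above 1 between genotypes, while Hspb2 lies below 0 in all 3 comparisons.

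Cryab, the small heat shock protein that neighbours Hspb2 on chromosome 9 and belongs to the partner list rather than to the members, went the other way from Hspb2. It read 1.68 and 1.54 on the genotype arrays (adjusted p = 0.004 in limma), while after H2O2 it read 0.54 in wild type cells and 0.34 and 0.13 in mutant cells. Several of these genes are typical of muscle, and the summed intensity of 11 skeletal muscle markers was lower in the treated than in the untreated channel of each of the 4 treatment arrays: it was 4260 and 5699 in untreated wild type cells, 2400 and 4152 in treated ones, 4845 and 4863 in untreated mutant cells and 2520 and 2566 in treated ones. Of these markers 10 were well above background on both untreated wild type arrays and 9 on both mutant ones. Untreated cells of the genotypes overlapped in this sum. The sum gives most weight to the brightest markers, and by gene the list was mixed. Its median log2 ratio after H2O2 was -0.54 in wild type cells (from -1.13 to 0.84 over 10 markers) and -0.14 in mutant cells (from -2.25 to 0.70 over 11), and none of the markers was called in limma in either. In mutant cells Acta1, muscle actin, read -2.07 and -2.43, while Des read 0.41 on both arrays and Tnnt1 0.32 and 1.08. The part of muscle cells in the values of Hspb2 and Hspb3 was not tested, and in these bulk samples fewer cells of a type and less RNA per cell cannot be told apart.

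Of the 7 CCT genes with a value 3 were called lower in mutant cells, where 8.67% of all genes were, and so was Hspa4. Cct3 read -2.60 and -1.51 (mean -2.06 ± 0.27, adjusted p = 0.0070 in limma). Cct6a read -2.65 and -1.42 (mean -2.03 ± 0.32, adjusted p = 0.017 in limma). Cct6b read -1.06 and -0.52 (adjusted p = 0.039 in limma). All 3 were lower on both arrays, and each was more reduced on array 3 than on array 4. The other subunits were not called: Cct4 read -0.75 on array 3, Cct5 read -0.11 and 0.21, Cct2 read 0.05 on array 3 and Cct7 read -0.39 on array 4. With marked spots kept, Cct4 (-0.68 and -0.55) and Cct7 (-1.45 and -0.37) were called too, and Cct8, marked on all 6 arrays, read -0.85 and 0.06. Hspa4, the Hsp110 that exchanges the nucleotide of Hsp70, read -1.82 and -0.89 (mean -1.36 ± 0.28, adjusted p = 0.024 in limma). By the same probe it read 0.47 in wild type and 0.61 and -0.05 in mutant cells after H2O2. A second probe on its transcript, with marked spots kept, differed from the first by -1.57 and -1.39 on the wild type arrays. On the mutant arrays it differed by -0.50 and -0.33. That probe was thus below 0 on the wild type array where the first had a value.

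By the probes read here, Hspa8 and the mitochondrial chaperonin pair had ratios near 0 between untreated genotypes. Hspa8 read -0.30 and 0.06, Hspd1 read -0.22 and -0.23, and Hspe1 read 0.03 and -0.08. By these probes the 3 abundant chaperones were within 0.30 of 0 on both arrays. Second probes on 2 of the transcripts were lower, with marked spots kept. They differed from the first by -1.25 and -0.37 for Hspa8 and by -1.46 and -0.24 for Hspd1. Hspca read -0.41 and -0.82 (adjusted p = 0.063 in limma), and Hspcb, the constitutive form, read 0.54 on array 4 and, marked, -0.89 on array 3. Hspa9a read -1.08 and 0.23, on both sides of 0. Of the Hsp70 genes the divergent members Hspa12a, at 1.14 and 0.72 (adjusted p = 0.016 in limma), and Hspa12b, at 0.65 and 0.69 (adjusted p = 0.031), were higher. The brightest Hspa1a probe read -0.53 and 0.12 and was not called, but 2 of its other 3 probes were higher on both arrays, at 0.84 and 0.67 and at 0.54 and 0.71, and the Hspa1b probe read 0.15 and 0.25.

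Of the DnaJ genes 7 were called higher, 3 of 14 in classes A and B and 4 of 13 in class C, where 10.7% of all genes were called higher. Dnajb12, which sits in the endoplasmic reticulum membrane and hands proteins to Hspa8, read 1.36 and 1.18 (mean 1.27 ± 0.16, adjusted p = 0.0063 in limma). Dnajc12 read 1.04 and 0.96 (adjusted p = 0.012 in limma). Dnajc11, a mitochondrial outer membrane DnaJ, read 0.99 and 0.74, and Dnajc8, a splicing-associated one, read 0.81 and 0.84. A second Dnajc8 probe read 1.14 and 1.01, so both probes of this gene were higher on each array, whereas other probes of Dnajb12 (-0.47 and 0.13) and Dnajc11 (0.13 and -0.41), on other accessions, were not. Dnaja1 (1.15 and 0.45), Dnaja3 (0.97 and 0.39) and Dnajc1 (0.77 and 0.74) were the other 3 called higher. With marked spots kept, a brighter probe on the Dnaja1 transcript differed from the one read by -1.70 and 0.05, and so lay on both sides of 0. The Dnaja3 probe read was higher by 1.59 and 0.78 than a dimmer one on its transcript, which lay below 0 on both arrays. In the opposite direction Dnajb6 read -2.13 and -1.48 (mean -1.81 ± 0.22, adjusted p = 0.0036 in limma), and another probe on the same transcript read -1.15 and -1.11. Dnajb3 passed the threshold too, but its ratio is one between signals at or near background, which were above it on 1 array in wild type and on neither in mutant cells, and no fold is given. Dnajb1, the main heat-inducible partner of Hspa1a, read 0.57 and 0.15 and was not called, and its second probe read -0.94 and -0.40.

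**Figure D4:**
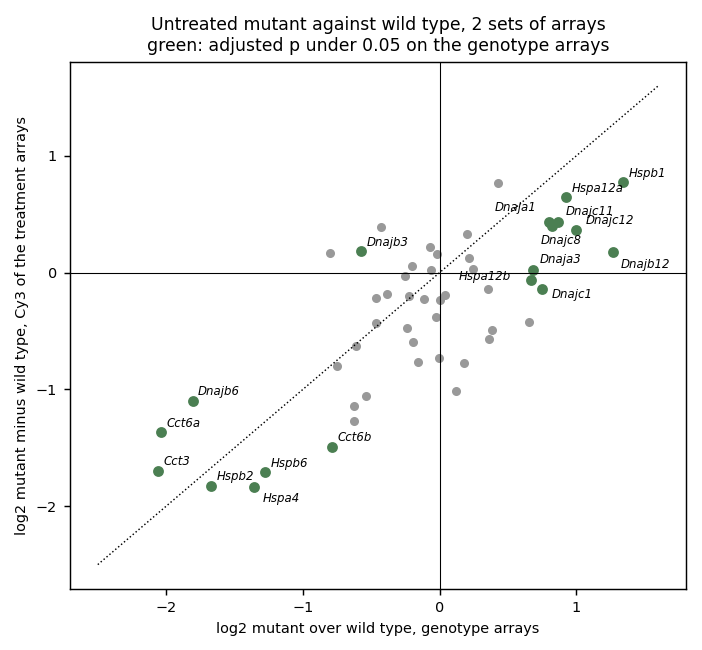
Log2 difference between untreated mutant and wild type cells for 52 chaperone genes on the genotype arrays (horizontal axis) and within Cy3 of the treatment arrays (vertical axis), 1 point per gene, green where called on the genotype arrays, with a dotted line of equality. The 10 genes called higher all lie below the line, and 8 genes called lower have values for both axes, of which Dnajb3 alone is above 0 on the vertical one.

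Within Cy3, on arrays independent of the genotype arrays, no member was called (0 of 52 in limma, against 0.564% of all genes), and 11 had an unadjusted p under 0.05 against 10.2% of all genes. Of the 18 members called on the genotype arrays that had a value here, 15 had the same sign, the exceptions being Dnajc1, Dnajb3 and Hspa12b. Over all 52 members the sign was the same for 35, with r = 0.760 across genes, which are not independent replicates. The direction of the genotype ratios was itself set by this Cy3 channel over all called probes. A majority of shared signs and a positive r are therefore no separate check of that direction. The normalized log2 level of Hspb1 in Cy3 was 8.64 and 9.07 in wild type and 9.55 and 9.71 in mutant cells. That of Hspb6 was 6.65 and 7.50 in wild type and 5.53 and 5.19 in mutant cells. That of Cct3 was 10.09 and 10.08 in wild type and 8.39 on the mutant array with a value. In these 3 genes the levels of the genotypes did not overlap. Hspb2 was more uneven, at 6.82 and 9.20 in wild type and 6.22 and 6.15 in mutant cells, so that wild type array 2 carried most of its difference. Without wild type array 1 the count was 8 of 32 members, 7 of them lower, where 14.8% of all genes passed, and without wild type array 2 it was 1 of 51 (Hspa4), where 1.42% passed. With Cy3 scaled to the array medians in place of loess and Aquantile 5 of 52 were called, all lower, against 1.61% of all genes, and with dim probes filtered out 1 (Hspb6) was called against 1.31%.

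Probes of the same transcript disagreed for many of these genes. For 14 members 1 RefSeq accession was read by a probe of the design series A_51 and by one of the series A_52, both with a mean log2 intensity above 6. With marked spots kept, the median difference of log2 ratios, A_52 minus A_51 probe, was -0.61, -0.59, -0.18, -0.42, -1.31 and -0.37 over the 6 arrays in the order given above, against -0.08, -0.11, -0.03, -0.06, -0.20 and -0.05 over all 1779 accessions read in this way. On genotype array 3 the A_52 probe was lower by more than 1 on the log2 scale for 8 of the 14 (57.1%), against 23.6% of all. The order went with brightness over the whole array, where the median on array 3 was -0.51 for the 978 accessions whose A_52 probe was the dimmer one and 0.08 for the 801 where it was the brighter, and the part of brightness in the members' values was not tested.

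Hspa8 shows the pattern, reading -0.16 and 0.09 on genotype arrays 3 and 4 with its A_51 probe and -1.41 and -0.28 with its A_52 probe, marked spots kept in both. Hspd1 read -0.12 and -0.21 with the first and -1.58 and -0.45 with the second. Hspa4 read -1.82 and -0.89 with the first and -3.20 and -1.64 with the second, and so was lower by both. Cct2 read 0.14 and -0.11 with the first and -2.20 and -0.61 with the second, marked spots kept. Cct3 and Cct6a, the 2 CCT subunits with the lowest ratios, have an A_52 probe only, and the part of the probe series in their values was not tested. The opposite order was seen for Dnaja3 and Hspa2, where the A_52 probe was higher by 1.59 and 1.58 on array 3. With the brightest A_51 probe read wherever a gene had one, 20 of 56 members were called between genotypes (35.7% against 19.0%), 18 of them among the 19, while Dnaja3 turned to -0.50 and was not called.

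**Figure D5:**
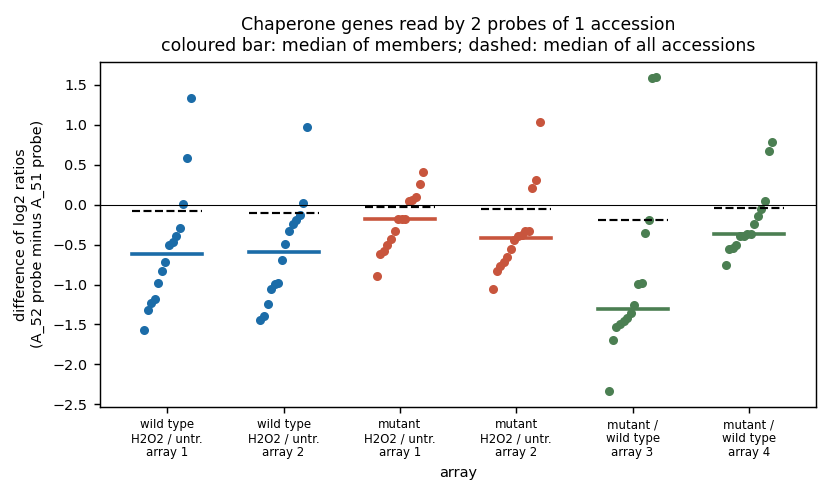
Difference of log2 ratios between the A_52 and the A_51 probe of 1 accession for 14 chaperone genes on each array (points, sorted within an array), with the median of the members (coloured bar) and of all 1779 accessions (dashed). The members' medians are below 0 and below the dashed lines on all 6 arrays.

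Of 45 listed partners and regulators of these chaperones 38 were on the array, and none was called after H2O2 in wild type (35 with a value) or mutant cells (37). The nearest in wild type cells were Grpel1, which exchanges the nucleotide of Hspa9 in mitochondria (0.92 and 0.80, adjusted p = 0.062 in limma), and Fkbp5, an Hsp90 partner (-1.19 and -1.32, adjusted p = 0.077 in limma). Between genotypes 9 of 37 were called in limma, 4 higher and 5 lower, where 19.4% of all genes were called (10.7% higher and 8.67% lower). Higher in mutant cells were Cryab, the collagen chaperone Serpinh1 (0.91 and 0.82, adjusted p = 0.013), the prefoldin subunit Pfdn5 (0.78 and 0.85) and the ubiquitin ligase Stub1, which takes clients from Hsp70 to the proteasome (1.37 on array 4 alone). Lower were the cyclophilin Ppid (-0.83 and -1.09, adjusted p = 0.010), the Hsp90 partner Chordc1 (-0.52 and -1.24), the prefoldin subunit Pfdn1 (-0.53 and -0.65), the lens small heat shock protein Cryaa (-1.52 and -0.68) and the mitochondrial import factor Tomm34 (-0.88 and -0.44). Hsf1, the main heat shock factor, read 0.11 and -0.14. Bag3 read 0.52 on array 3, and Tcp1, the first subunit of the CCT ring, read -0.60 and 0.17, and none of these 3 was called. The Stip1 probe was not above background on any array.

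Across the 15 other settings run for the genotype arrays in their stated direction, Dnajb6 and Hspb1 were called in each, and the sign of all 19 genes was the same with another background correction, with median centring and with the ratios of the image software. At the thresholds the study used (adjusted p under 0.005 and mean log2 intensity above 6, and for H2O2 a change above 2-fold) the members called were Dnajb6 and Hspb1 between genotypes, of 592 genes in all. After H2O2 no member passed them in limma in either genotype, and no gene of the whole array did. The study itself reports genes altered by H2O2 in each genotype at these thresholds, although the captions of its gene lists state a looser adjusted p. The zero count thus belongs to the fit used here, and the reason for the difference was not tested.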

How the data were processed

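In all, 6 dual-dye Agilent arrays were read from the image files, 2 per comparison. Per the file headers, Feature Extraction A.7.5.1 made the spot intensity values, background medians and outlier and background flags, and the authors deposited these with the software's own dye-normalized log10 ratios. A further table deposited by the authors holds log2 ratios per spot after their limma processing, and was used only as an alternative. The labels list total RNA, whereas the study's text describes cytoplasmic RNA.

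The study's methods state background subtraction and loess in limma, and both were done here in limma 3.58.1 (R 4.3.3). Taking the background median and giving control and outlier spots weight 0 in loess were choices made here. Spots marked as outliers were then left out, spots of a probe were averaged, and 1 linear model with eBayes was fitted to the 6 arrays (3 residual degrees of freedom). P-values are 2-sided and adjusted by Benjamini-Hochberg over all non-control probes. With 2 arrays a comparison, the p-values and SEs rest on a spread pooled over the 6 arrays and moderated by eBayes, not on the 2 arrays alone. For the comparison within Cy3, intensities were scaled between arrays by Aquantile. A gene was read from its brightest probe with at least 5 of 6 values, or else its brightest probe. A spot is well above background as the software's flag gives it.

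Named were a fixed core (the Hsp70, Hsp90, small, mitochondrial and CCT genes given in the text, Dnaja1 and Dnajb1), in each comparison the 8 largest called genes, and the 3 highest and 3 lowest of the same sign on both arrays and well above background in both dyes. Hsph1, also in the core, is not on the array under that name. The members, the partner list and the marker lists were chosen with earlier results of these data known. Names were matched to RefSeq (GRCm38.p6), as were promoter sequences. The procedure was tested on simulated data. Alternatives were normexp with an offset of 50, median centring, the software's ratios, the deposited log2 table, outlier spots kept, any probe, an A_51 probe, a brightness filter, the arrays of 1 comparison alone, a replicate block, the sign turned, and each array left out.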

Additional observations from a re-analysis of the deposited data

How the results depend on the processing

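In H2O2-treated wild type cells 1 of 52 members was called, and the count was 0 with median centring (0.0307% of all genes then passed), 5 with normexp (5.85%), 4 with the brightness filter (3.41%), 3 with outlier spots kept (2.46%), 3 with the deposited log2 table (2.49%), 20 with only the arrays of the comparison (25.2%) and 0 to 19 with 1 array left out. In mutant cells 0 became 8 with median centring, all higher (4.93% of all genes passed), 10 with only the arrays of the comparison (11.0%) and 0 to 10 with 1 array left out. Median centring also moved the members' median from 0.02 to 0.47 in wild type cells, from 0.07 to 0.84 in mutant cells and from -0.04 to 0.29 between genotypes. Between genotypes 19 (19.4% of all genes) became 9 with the software's ratios (6 higher and 3 lower; 8.54%), 11 with median centring (6 and 5; 10.8%), 6 with only those arrays (1 and 5; 5.06%) and 11 to 26 with 1 array left out. For the difference of responses 0 became 1 (Hspb2) with only those arrays (1.30% of all genes) and 0 to 1 with 1 array left out. Within Cy3, 0 became 5 with median scaling (1.61% of all genes), 1 with the brightness filter (1.31%) and 0 to 8 with 1 array left out. The cause of these changes was not tested.

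With the sign turned to the labels' direction the same 19 genes were called at Cct3 2.06, Cct6a 2.03, Cct6b 0.79, Dnaja1 -0.80, Dnaja3 -0.68, Dnajb12 -1.27, Dnajb3 0.58 (signals at or near background), Dnajb6 1.81, Dnajc1 -0.75, Dnajc8 -0.82, Dnajc11 -0.87, Dnajc12 -1.001, Hspa4 1.36, Hspa12a -0.93, Hspa12b -0.67, Hspb1 -1.34, Hspb2 1.67, Hspb6 1.27 and Hspb8 1.56. Dnaja1 turned to -0.0043 with outlier spots kept and to -0.0036 in the deposited log2 table, both through another probe, and Dnaja3 to -0.50 with its A_51 probe, an alternative chosen after seeing the data.

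Whether wild type and mutant treatment arrays of the same replicate number share a culture day or batch cannot be told here. Their deviations from the comparison mean correlated at -0.046 over 29913 probes, which with 2 arrays a comparison cannot exclude it. With a replicate block the count was 0 in wild type cells, 0 in mutant cells, 0 for the difference of responses and 0 within Cy3. A slide or scan block was not run, because each of the 6 arrays lies on a slide of its own. With 2 arrays a comparison and no dye exchange, signal near background limits Dnajb3, Hspb2 and Hspb3.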
